A study of Mus musculus with 51 samples.

Results

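Apob, Cubn, Amn, Lrp2, Dab2, Ttr, Afp, Apoa4, Hnf4a and Foxa2 are 10 genes known for their use in the visceral endoderm, and their chromatin was read in dissected extra-embryonic ectoderm (ExE) and epiblast of the mouse. They are 10 of the 20780 autosomal protein-coding genes of the annotation, and were chosen by name because these genes had appeared with higher H3K36me3 in ExE than in epiblast in the same libraries. The values that chose them are therefore those of the ExE against epiblast contrast, which is given below as a description with no test. In the 6 tables of reads per peak and allele, 51 of 150793 peaks carried the name of a member, and 39 of these held enough reads to be tested.

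The tissues came from embryos at embryonic day 6.5, separated by hand. Each library was made from a pool of 4 epiblasts or 8 ExE, by native chromatin immunoprecipitation for low cell numbers. There were 36 such libraries, 2 for each combination of 3 marks, 2 tissues and 3 crosses, and 15 inputs. The crosses, written with the mother first, were C57BL6/Babr by CAST/Ei (B6/CAST), its reciprocal (CAST/B6), and matDKO/CAST, in which B6/129 mothers with floxed Dnmt3a and Dnmt3b and the oocyte-expressed Zp3 Cre were mated to CAST males, so that the oocyte lacked DNA methylation while the embryo inherited intact paternal alleles. Every embryo was thus an F1 hybrid with CAST, and both B6/CAST and CAST/B6 are called wild type. Nothing in the sources used here states that the visceral endoderm, which covers both tissues at this stage, was removed before the pools were frozen. Replicates were separate pools, and with 2 per group a p-value measures only the spread between such pools. The authors split each chromatin sample among the 3 antibodies and the inputs, so libraries of unlike marks can share a pool.

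The visceral endoderm is the outer epithelium of the egg cylinder. It takes up maternal proteins and lipids by endocytosis and passes them on, before a placenta exists, and it secretes the same lipoproteins and carrier proteins that the liver makes later. The ExE is a trophoblast tissue that it surrounds. H3K36me3 is laid down along the bodies of genes as they are transcribed, H3K4me3 marks active and poised promoters, and H3K27me3 is the mark of Polycomb repression. In such bulk pools, fewer cells that carry a mark and less mark per cell cannot be told apart.

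Levels are given in RPKM, reads scaled to window length and library size, in windows of 1 kb, averaged over the gene body for H3K36me3 and over windows within 1 kb of the annotated 5′ end for H3K4me3 and H3K27me3. Differences are on the scale of log2(RPKM + 0.5), which understates the change of low values. The number of reads in windows was 2287746 to 14003247 per H3K36me3 library, 4710217 to 20788484 per H3K4me3 library, 3466006 to 24344461 per H3K27me3 library and 8036765 to 99740103 per input. The inputs had mean levels of 0.366 to 0.633 RPKM over the bodies of the members, around the median of all genes of 0.529 in ExE and 0.533 in epiblast.

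The start sites of the members were of unlike kinds. Capitals below mark CpG, written CG and the same on both strands, in 300 bases around the start in RefSeq (build GRCm38.p6). Of 31396 autosomal promoters of this length, 94.8% held at least 1 CpG, and the median was 7 with quartiles of 3 and 21. Amn had 15 and is shown as a start that carried both H3K4me3 and H3K27me3 peaks in every list. Cubn had 5 and is shown as the start with H3K4me3 and no H3K27me3 peak. Dab2 is shown at an internal start with 19, since its annotated 5′ end carried almost no H3K4me3. Afp had 3 and is shown as a start with little of any mark.
Amn, chr12:111270846-111271145, plus strand: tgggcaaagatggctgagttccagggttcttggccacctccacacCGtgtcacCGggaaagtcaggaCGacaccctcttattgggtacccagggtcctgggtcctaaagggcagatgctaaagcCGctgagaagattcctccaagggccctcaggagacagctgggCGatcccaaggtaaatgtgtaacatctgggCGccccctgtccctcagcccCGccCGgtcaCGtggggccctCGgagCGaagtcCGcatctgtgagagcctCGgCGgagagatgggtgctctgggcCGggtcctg
Cubn, chr2:13491827-13492126, minus strand: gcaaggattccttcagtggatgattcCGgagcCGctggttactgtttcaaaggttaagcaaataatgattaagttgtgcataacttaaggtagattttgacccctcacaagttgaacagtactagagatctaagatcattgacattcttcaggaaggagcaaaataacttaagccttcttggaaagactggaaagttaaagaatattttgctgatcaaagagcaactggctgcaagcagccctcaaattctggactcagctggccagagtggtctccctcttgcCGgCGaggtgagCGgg
Dab2, chr15:6386498-6386797, plus strand: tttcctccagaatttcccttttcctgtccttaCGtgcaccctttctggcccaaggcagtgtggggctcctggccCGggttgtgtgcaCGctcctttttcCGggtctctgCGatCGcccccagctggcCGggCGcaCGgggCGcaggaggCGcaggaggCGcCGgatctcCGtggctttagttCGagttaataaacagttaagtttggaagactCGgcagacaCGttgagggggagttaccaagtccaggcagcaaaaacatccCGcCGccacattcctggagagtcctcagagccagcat
Afp, chr5:90490464-90490763, plus strand: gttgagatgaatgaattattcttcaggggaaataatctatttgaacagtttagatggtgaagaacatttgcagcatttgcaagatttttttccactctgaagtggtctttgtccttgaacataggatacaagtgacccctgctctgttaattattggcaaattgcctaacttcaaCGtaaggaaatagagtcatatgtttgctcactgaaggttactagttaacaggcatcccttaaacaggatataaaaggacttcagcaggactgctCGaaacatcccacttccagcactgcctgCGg
Among the other members with a RefSeq promoter, Lrp2 held 20 CpG, Apob 9, Hnf4a 4 and Apoa4 1, and the 3 starts of Foxa2 held between 12 and 23.

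Over gene bodies, the H3K36me3 of 7 of the 10 members was higher in each of the 6 ExE libraries than in any of the 6 epiblast libraries. These were Apob, Cubn, Amn, Hnf4a, Ttr, Dab2 and Lrp2, and no member was lower. Among all genes that passed a mean level of 0.2 RPKM, 16.6% were higher in this way and 3.12% lower, and nothing is read from the members' count since the contrast chose them. The median difference of the 10 members was 0.66 on the log2 scale, against 0.12 for all genes. These counts depended on the scaling of the libraries. After quantile normalization 5 members were higher, Lrp2 and Ttr overlapping at differences of 0.25 and 0.54, where 3.5% of all genes were higher and 5.07% lower. With libraries scaled between their 40th and 99th percentiles the 7 remained higher, where 6.86% of all genes were higher and 0.567% lower. The members' median was 0.42 and 0.59 under these scalings, against 0.00 and 0.15 for all genes, and no member was lower.

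**Figure D1:**
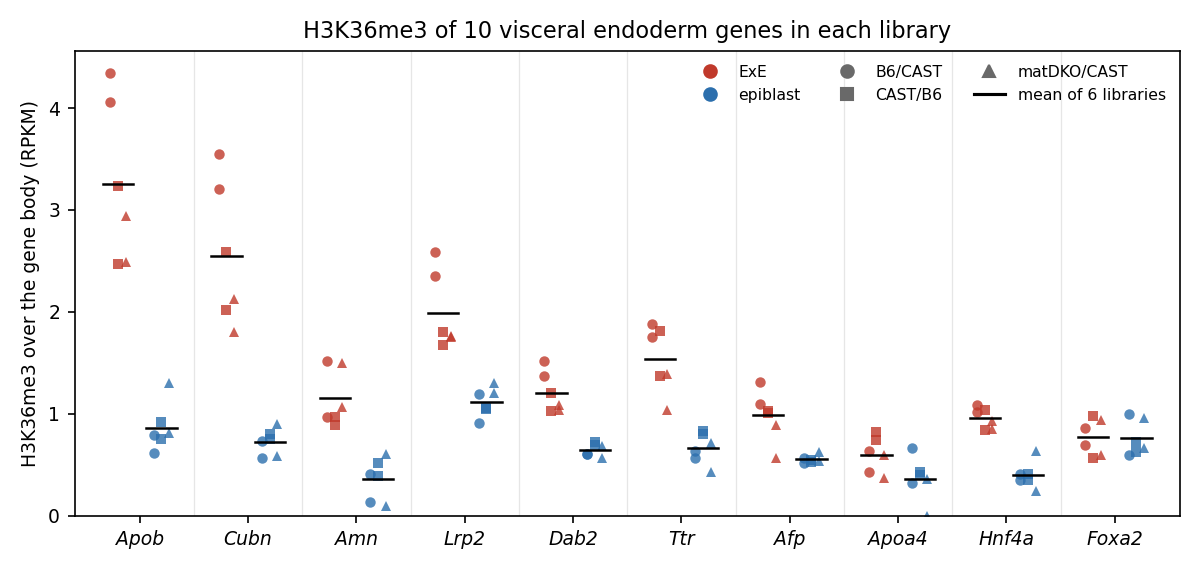
H3K36me3 over the gene body in RPKM (y axis) of each of the 10 genes (x axis) in the 12 libraries. Each point is a library, coloured by tissue and shaped by cross, and bars are means of 6. Red points lie above all blue points of the same gene for Apob, Cubn, Amn, Lrp2, Dab2, Ttr and Hnf4a, and overlap them for Afp, Apoa4 and Foxa2.

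The receptors of protein uptake were read first. Cubn (chr2:13276338-13491813, minus strand), which encodes cubilin, a large endocytic receptor for vitamin B12 with intrinsic factor and for apolipoproteins, had 1.81 RPKM in its lowest ExE library, a median of 2.36 and a highest value of 3.55. In epiblast it ranged from 0.565 to 0.898 with a median of 0.739. The lowest ExE pool thus stood above the highest epiblast pool, and the means of 2.55 ± 0.701 and 0.721 ± 0.128 (SD, n = 6 each) differed 3.54-fold. In the ranking of all genes by ExE level Cubn stood above 96.5%, and in epiblast above 68.3%.

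Amn (chr12:111271095-111276426, plus strand) encodes amnionless, the membrane partner that carries cubilin to the cell surface. Its H3K36me3 ran from 0.886 to 1.52 RPKM in ExE with a median of 1.02, and from 0.0957 to 0.606 in epiblast with a median of 0.4002, a 3.20-fold difference of the means. The body spans only 5 windows, and no epiblast library reached the ExE range. The lowest epiblast library, matDKO/CAST replicate 2, stood at the counting floor, where a read in a window is 0.479 RPKM.

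Lrp2 (chr2:69424340-69586065, minus strand) encodes megalin, the receptor that works with cubilin. It had 1.67 to 2.59 RPKM in ExE, with a median of 1.78, and 0.914 to 1.30 in epiblast, with a median of 1.13. Of the 7 members it had the smallest fold of the means, 1.78, and the highest epiblast level, above 83.6% of genes there. Dab2 (chr15:6299788-6440712, plus strand), the adaptor that links megalin to clathrin, had 1.03 to 1.52 RPKM in ExE and 0.570 to 0.719 in epiblast, 1.87-fold.

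The body average of Dab2 hid an uneven profile. With the gene split into 4 equal segments from its 5′ end, ExE and epiblast held 0.430 and 0.387 RPKM in segment 1 and 0.394 and 0.372 in segment 2. In segment 4 the values were 2.67 and 1.17, with 1.94 to 3.78 in the 6 ExE libraries and 0.793 to 1.39 in epiblast. The level was higher in both tissues past the internal start printed above, near a coding start 86810 bases inside the annotated gene. Cubn was level along its length in ExE, at 2.67, 2.59, 2.54 and 2.40 RPKM from segment 1 to segment 4, while Apob went from 2.52 to 3.83 and Lrp2 from 1.30 to 2.17.

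**Figure D2:**
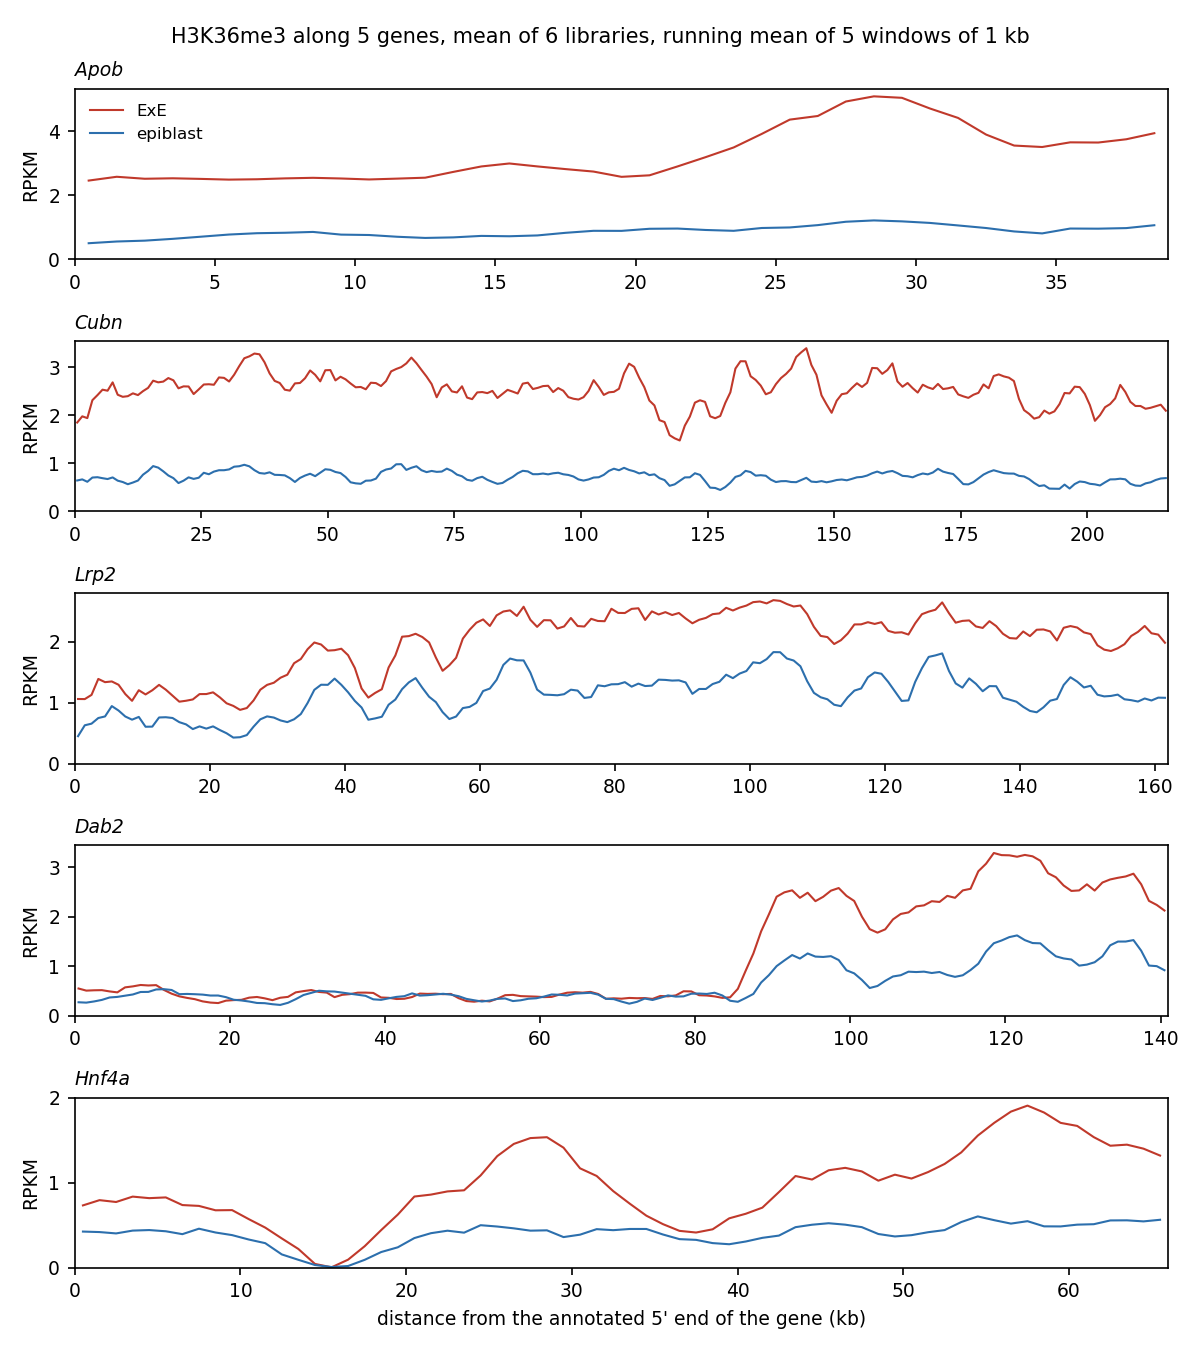
H3K36me3 in RPKM (y axis) against distance from the annotated 5′ end in kb (x axis) for Apob, Cubn, Lrp2, Dab2 and Hnf4a, as means of 6 ExE (red) and 6 epiblast (blue) libraries smoothed over 5 windows. The red line lies above the blue along most of each gene, and for Dab2 the lines part only in the 3′ part of the gene.

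The secreted lipoproteins and carriers came next. Apob (chr12:7977648-8016835, plus strand), the structural protein of very low density lipoprotein, had the highest level and the largest difference of the members. Its ExE libraries ran from 2.47 to 4.35 RPKM with a median of 3.09, and its epiblast libraries from 0.615 to 1.30 with a median of 0.802. The means of 3.26 ± 0.791 and 0.865 ± 0.234 (SD, n = 6 each) differed 3.77-fold, and the ExE level stood above 98.7% of genes.

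Ttr (chr18:20665280-20674321, plus strand), which encodes the thyroxine and retinol carrier transthyretin, had 1.04 to 1.88 RPKM in ExE and 0.426 to 0.830 in epiblast, with medians of 1.57 and 0.674. Afp (chr5:90490737-90508907, plus strand), the fetal serum protein alpha-fetoprotein, had 0.562 to 1.32 in ExE and 0.512 to 0.624 in epiblast. Only the matDKO/CAST replicate 2 library at 0.562 kept its groups from separating, and the other 5 ExE libraries lay between 0.894 and 1.32. Apoa4 (chr9:46240696-46243459, plus strand), an apolipoprotein of intestine and yolk sac, had 0.374 to 0.824 in ExE and 0 to 0.668 in epiblast over 2 windows, and its groups overlapped.

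The transcription factors that drive these genes in endoderm differed from each other. Hnf4a (chr2:163506808-163572910, plus strand), needed for visceral endoderm differentiation, had 0.840 to 1.09 RPKM in ExE and 0.239 to 0.637 in epiblast, with means of 0.962 ± 0.103 and 0.3998 ± 0.132 (SD, n = 6 each). Foxa2 (chr2:148042877-148046969, minus strand), a forkhead factor of endoderm and of the node, had 0.567 to 0.978 in ExE and 0.596 to 1.00 in epiblast. Its means were 0.771 and 0.762, and the tissues overlapped almost completely over its 4 windows.

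The authors' peak lists, called for each wild-type cross, covered the members unequally. H3K36me3 peaks covered 100.0% of Apob and of Cubn in ExE of both crosses. In epiblast of B6/CAST they covered 48.5% of Apob and 20.4% of Cubn, and in CAST/B6 85.1% and 74.7%. Amn was covered by 73.6% and 100.0% in ExE, Afp by 90.3% and 87.5% and Hnf4a by 63.4% and 81.6%, and none of these had an H3K36me3 peak in epiblast. For the allelic reads the ExE peaks over Cubn, Amn and Hnf4a carried the names of neighbouring genes. Lrp2 was covered by 83.5% or more in all 4 lists, and Apoa4 in none. Foxa2 was covered less in ExE, at 27.5% in both crosses, than in epiblast, at 51.9% and 76.3%.

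At annotated starts, H3K4me3 separated the tissues for fewer members. Apob, Cubn and Ttr were higher in all ExE libraries and Lrp2 was lower, of 9 members above the minimum level, where 1.47% of all genes were higher and 9.03% lower. The members' median difference was 0.88 on the log2 scale, against -0.05 for all genes. Cubn had 11.1 to 19.97 RPKM in ExE and 3.34 to 8.34 in epiblast, with medians of 16.0 and 4.49. Apob had 8.27 to 12.7 against 3.25 to 8.18, so that its groups only just separated, and Ttr had 4.83 to 8.47 against 1.73 to 4.46.

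Lrp2 went the other way, with 16.2 to 23.7 RPKM in ExE and 24.5 to 36.9 in epiblast, while its H3K36me3 was higher in ExE, a separation that was lost after quantile normalization, at a difference of 0.25. This lower start level did not hold as a separation under other scalings: the difference was -0.64 as measured, -0.58 after quantile normalization and -0.09 when libraries were scaled between their 40th and 99th percentiles, and the groups overlapped under both. Under these same scalings 6 members were higher, Amn, Apoa4 and Hnf4a being added, where 8.62% and 7.78% of all genes were higher and the median of all genes moved to 0.03 and 0.46. Amn had 9.17 to 18.2 in ExE and 5.95 to 10.5 in epiblast, and CAST/B6 replicate 1, at 9.17, was the only ExE library below the highest epiblast library. Without that library 5 members were higher, but leaving out a library can only keep or raise this count, and the share of all genes was not computed.

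Where the annotated 5′ end missed the active start, another coding start was read. For Dab2 the annotated end had 0.139 ± 0.0693 RPKM in ExE and 0.118 ± 0.0550 in epiblast, whereas the internal start had 12.7 ± 1.90 and 13.2 ± 2.19 (SD, n = 6 each), and the groups overlapped there, from 10.5 to 16.2 and from 10.6 to 16.1. The start level of Dab2 thus did not separate the tissues, while its H3K36me3 did.

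Hnf4a, known to be transcribed from alternative promoters, had 1.38 to 6.88 RPKM at its annotated 5′ end in ExE and 0.481 to 2.44 in epiblast. At a start 40379 bases further in it had 9.92 to 15.3 and 2.64 to 8.23. The internal start was the stronger in every library and separated the tissues, and with such starts 4 members were higher, where 1.22% of all genes were. Foxa2 had 13.7 ± 2.74 and 15.1 ± 2.26, Afp 1.40 ± 0.272 and 1.49 ± 0.864, and Apoa4 1.71 ± 0.690 and 0.743 ± 0.530 RPKM in ExE and epiblast (SD, n = 6 each). The peak lists held an H3K4me3 peak within 1 kb of the strongest start of all 10 members in both tissues and both wild-type crosses, except Apoa4 in CAST/B6 epiblast.

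**Figure D3:**
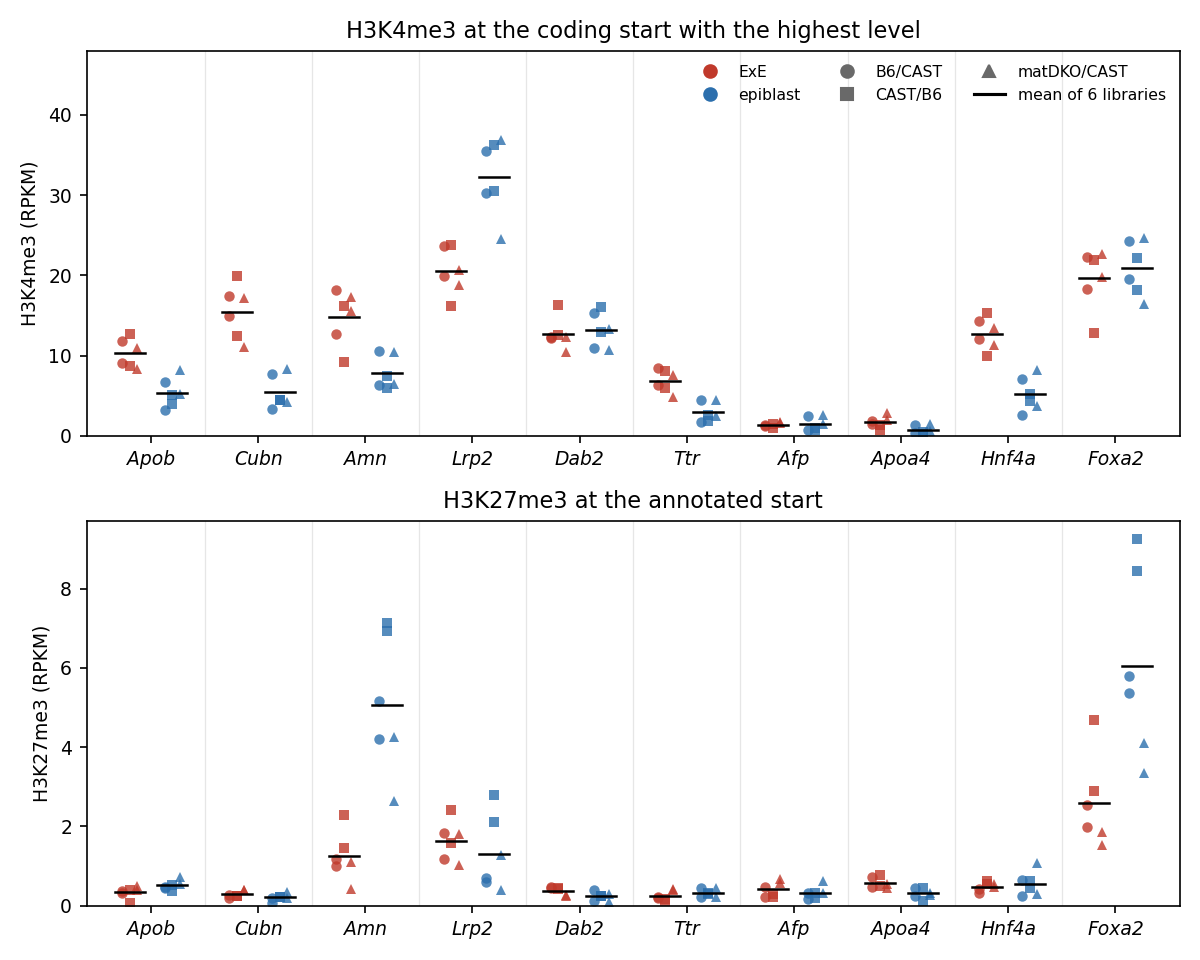
H3K4me3 at the coding start with the highest level and H3K27me3 at the annotated start, in RPKM (y axes), for each of the 10 genes (x axis) in 12 libraries per mark, with bars at means of 6. H3K4me3 of Cubn, Apob, Ttr and Hnf4a lies higher in ExE and that of Lrp2 lower, and H3K27me3 stands out only at Amn, Lrp2 and Foxa2.

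H3K27me3 was present at few members. Amn had 0.429 to 2.28 RPKM at its start in ExE and 2.63 to 7.14 in epiblast, with medians of 1.14 and 4.72, and was the only member lower in all ExE libraries. Foxa2 had 1.52 to 4.69 in ExE and 3.36 to 9.26 in epiblast, with CAST/B6 replicate 1 as the only ExE library above 2.90, and without it both genes were lower. Lrp2 had 1.03 to 2.42 and 0.383 to 2.79, which overlapped. Apoa4 was higher in all ExE libraries at low levels, 0.453 to 0.786 against 0.125 to 0.449. Among all genes, 5.11% were higher in this way and 4.64% lower, and the members' median difference of 0.03 was near the 0.01 of all genes.

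The peak lists held H3K27me3 at the starts of Amn, Lrp2 and Foxa2 in both tissues and both wild-type crosses, at the start of Apoa4 in CAST/B6 ExE alone, and at none of the annotated starts of Apob, Cubn, Dab2, Ttr, Afp or Hnf4a. The 3 with such peaks had 12 to 23 CpG in their promoters, but the internal start of Dab2, with 19 in the sequence printed above, had 0.266 ± 0.0996 RPKM in ExE and 0.255 ± 0.0909 in epiblast (SD, n = 6 each). Amn in epiblast held H3K4me3 at 7.84 RPKM and H3K27me3 at 5.06 over the same start, and Foxa2 15.1 and 6.05.

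Lists of marker genes for other cell types were set beside the members. They were chosen by name with earlier results of these data known, and their counts are a description. Of 14 other visceral endoderm genes, 9 had higher H3K36me3 in all ExE libraries and none lower, with a median difference of 0.63, where 16.6% of all genes were higher. The H3K36me3 counts of the lists were also taken under both other scalings, a choice made after seeing the data. Of the 14, 5 were higher after quantile normalization and 6 under percentile scaling, where 3.5% and 6.86% of all genes were. Apom, an apolipoprotein, had 1.47 ± 0.285 against 0.486 ± 0.228 RPKM, and the endoderm factors Gata4 and Gata6 1.30 ± 0.162 against 0.593 ± 0.188 and 1.47 ± 0.279 against 0.769 ± 0.178 (SD, n = 6 each). Each of these separated the tissues in the levels as deposited. By H3K4me3 3 of the 14 were higher, 1 was lower and 10 overlapped, with a median of 0.61, where 1.47% and 9.03% of all genes were higher and lower. Gata4 had 7.87 against 2.65 RPKM there and Apom 6.31 against 2.45, and the lower gene, named after its values were seen, was the endoderm factor Sox17 at 4.81 against 10.4. By H3K27me3 none of 12 was higher and 4 were lower, with a median of -0.57, where 4.64% of all genes were lower and the members' median was 0.03. Other lists had medians below 0 in this mark too, at -0.92 for anterior visceral endoderm with 1 of 4 lower, -0.48 for trophoblast stem cell genes with 2 of 9 lower and -0.28 for parietal endoderm with 1 of 9 lower. The ectoplacental and endocytic lists stood at -0.23 with 1 of 4 lower and -0.04 with 1 of 8 lower. The epiblast list stood at 0.52 with 3 of 8 higher, and decidua and blood at 0.08 with 1 of 8 higher, where 5.11% of all genes were.

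Of 8 genes of the endocytic machinery, 3 were higher in H3K36me3 and none lower, where 16.6% of all genes were higher. Their median was 0.57. By H3K4me3 all 8 overlapped, with a median of 0.46, where 1.47% and 9.03% of all genes were higher and lower. Folr1, the folate receptor, had 1.92 ± 0.344 RPKM in ExE and 0.855 ± 0.156 in epiblast and was among the 3. Lrpap1, the chaperone of megalin, with 1.47 and 1.08, and the lysosomal proteases Ctsl, with 2.77 and 1.68, and Ctsz, with 2.12 and 1.26, overlapped. Of 10 parietal endoderm genes, which mark the neighbouring endoderm of the yolk sac, 7 were higher in H3K36me3 and none lower, with a median of 0.41, where 16.6% of all genes were higher. Under quantile and percentile scaling 3 and 4 of the 10 were higher, where 3.5% and 6.86% of all genes were. By H3K4me3 1 of the 10 was higher and 9 overlapped, with a median of 0.04, where 1.47% of all genes were higher. Among the 7 were Sparc at 1.72 against 1.00 RPKM and the laminin chains Lamb1 at 1.92 against 1.44 and Lamc1 at 1.25 against 0.924, while Pdgfra, with 1.60 and 0.862, overlapped.

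Of 10 ExE and trophoblast stem cell genes, 6 were higher in H3K36me3, none lower and 4 overlapped, with a median of 0.54, where 16.6% of all genes were higher. Under either of the other scalings 5 of the 10 were higher, where 3.5% and 6.86% of all genes were. By H3K4me3 3 were higher and 1 lower, with a median of 0.28, where 1.47% and 9.03% of all genes were. Cdx2 had 1.36 ± 0.296 against 0.451 ± 0.0717 RPKM, Tfap2c 1.30 ± 0.320 against 0.506 ± 0.0623 and Ets2 2.80 ± 0.443 against 1.59 ± 0.339 (SD, n = 6 each), whereas Eomes, with 2.10 and 1.67, overlapped. Whether the marks on the members lay in ExE cells or in visceral endoderm carried over with them cannot be told apart in these pools.

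In the anterior visceral endoderm list, which marks the endoderm on the anterior side of the epiblast, 1 of 4 genes was higher in H3K36me3, with a median of -0.04, where 16.6% of all genes were higher, and none was under either of the other scalings. Hhex had 0.834 ± 0.120 RPKM of H3K36me3 in ExE and 0.495 ± 0.0961 in epiblast, and Cer1, Lefty1 and Dkk1 overlapped. At starts 2 of the 4 were lower, where 9.03% of all genes were. Cer1 and Lefty1, secreted inhibitors of Nodal signalling, had less H3K4me3 in all ExE libraries, 0.481 against 2.18 and 1.26 against 4.60 RPKM. These 2 genes therefore went opposite to Cubn, Apob and Ttr in the same libraries. Lefty1 is used by other cells as well, and which cells carried the mark was not tested.

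Of 9 epiblast genes, 4 were lower and 1 higher in ExE by H3K36me3, with a median of -0.44, where 3.12% and 16.6% of all genes were lower and higher. By H3K4me3 5 were lower, with a median of -1.41, where 9.03% of all genes were. Fgf5 had 0.677 ± 0.241 against 2.07 ± 0.432 RPKM and Tdgf1 0.801 ± 0.184 against 1.65 ± 0.387 (SD, n = 6 each), while Pou3f1 and L1td1 overlapped. The gene that was higher, named after its values were seen, was Tdh at 1.31 ± 0.1996 against 0.681 ± 0.144 RPKM (SD, n = 6 each), and the other 4 overlapped. By H3K36me3, 4 genes each of the epiblast and the trophoblast list thus did not separate the labelled tissues. Of 7 decidua and blood genes above the minimum, none was higher in ExE and 1 was lower, and the list's median ran from 0.227 to 0.304 RPKM in the ExE libraries and from 0.278 to 0.416 in epiblast. Under quantile and percentile scaling 5 and 4 of the 9 epiblast genes were lower and 1 higher, none of the 7 decidua and blood genes separated the tissues, and 3 of the 8 endocytic genes were higher. Of all genes, 3.5% and 6.86% were higher and 5.07% and 0.567% lower under these scalings. The haemoglobin genes were below the minimum in both tissues. Dcn at 0.316, Tyrobp at 0.314, Pecam1 at 0.533 and Lyz2 at 0.349 RPKM in ExE were near or below the all-gene medians of 0.460 to 0.621. In the list for ectoplacental cone and giant cells, which border the ExE, none of 4 genes separated the tissues, Ascl2 standing at 0.333, Hand1 at 0.941, Gcm1 at 0.473 and Tpbpa at 0.222 RPKM in ExE.

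**Figure D4:**
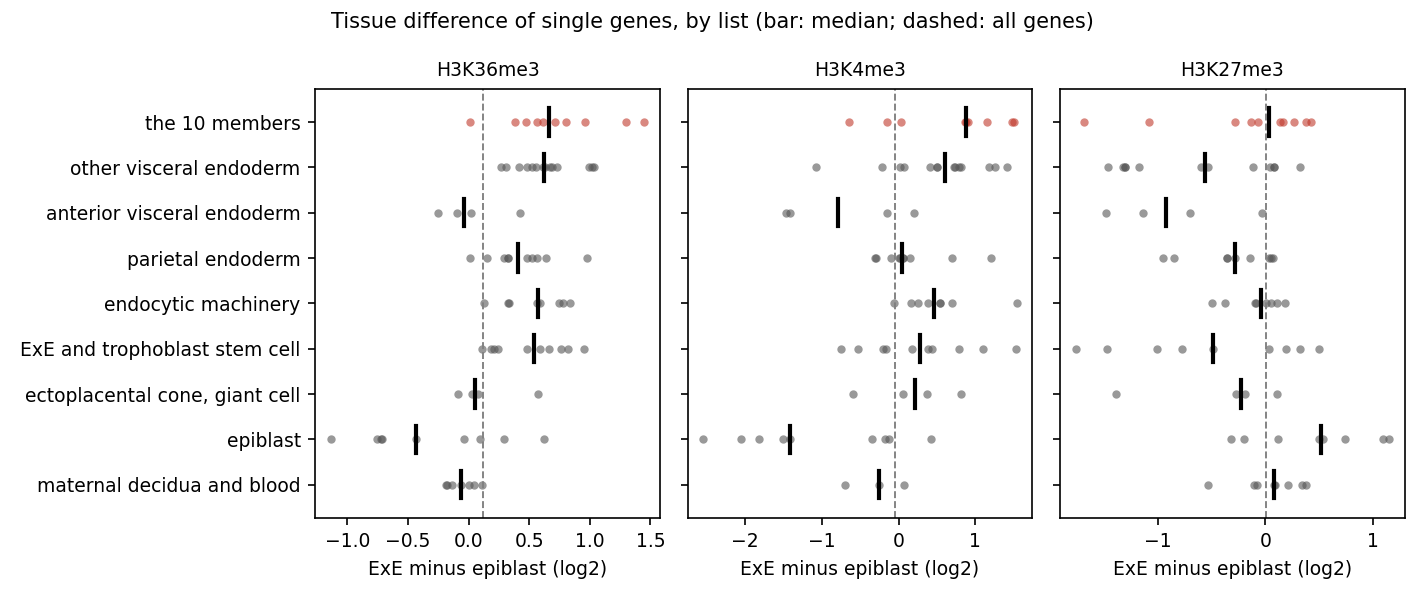
Difference of ExE minus epiblast on the log2 scale (x axis) of single genes (points) in each list (y axis) for the 3 marks, with black bars at list medians and a dashed line at the median of all genes. For H3K36me3 the medians of the members and of the other visceral endoderm, parietal endoderm, endocytic and trophoblast lists lie to the right of the line and those of the other lists to the left of it.

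Among the 6 ExE pools the level of the members varied. The median of the 10 was 1.23 and 1.52 RPKM in the B6/CAST libraries, 1.03 and 1.12 in CAST/B6, and 1.08 and 1.04 in matDKO/CAST, against 0.551 to 0.723 in the 6 epiblast libraries. B6/CAST replicate 2 was the highest ExE library for 6 of the 10 members, and CAST/B6 replicate 1 the lowest for 6. The medians of the trophoblast list in the same libraries were 1.16 and 0.890 in B6/CAST, 0.974 and 1.08 in CAST/B6, and 0.715 and 1.22 in matDKO/CAST, so that B6/CAST replicate 2 was highest for the members and next to lowest for the trophoblast genes. In epiblast, matDKO/CAST replicate 3 was the highest library for 6 of the 10 members by H3K36me3, and by H3K4me3 matDKO/CAST replicate 1 was highest for 8. H3K4me3 of Cubn in epiblast was 8.34 RPKM in that library and 7.72 in B6/CAST replicate 1, against 3.34 to 4.50 in the other 4. What set these pools apart was not tested.

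The members were also set against the mean of the other 9 in H3K36me3. Over all 12 libraries Pearson's r was 0.856 or more for 8 members, 0.522 for Apoa4 and -0.01 for Foxa2, but these values largely restate the tissue difference by which the members were chosen, and nothing is read from them. Within the 6 ExE libraries, as a description of points that share depth and scaling, r was 0.969 for Dab2, 0.952 for Cubn, 0.914 for Hnf4a, 0.876 for Lrp2 and 0.868 for Apob, 0.760 for Ttr and 0.678 for Afp. It was 0.271 for Foxa2, 0.0471 for Amn and -0.29 for Apoa4, and these 3, which span 2 to 5 windows, did not vary with the others among ExE pools. Within the 6 epiblast libraries r was 0.937 for Cubn, 0.801 for Hnf4a, 0.754 for Dab2, 0.730 for Afp and 0.654 for Ttr. It was 0.607 for Apob, 0.521 for Amn, 0.406 for Apoa4, 0.231 for Lrp2 and -0.52 for Foxa2. Of 10296 genes with a mean of 0.5 RPKM or more outside the members, the 10 most like their mean over the 12 libraries, a measure that the tissue difference enters too, included Mttp, Slc13a4, Gipc2, Gramd1b, Npl, Vmp1, Tmprss2, Myo7a and Dpp4, with r from 0.982 to 0.990. Mttp, which loads lipid onto the product of Apob, led with 1.57 ± 0.293 RPKM in ExE and 0.757 ± 0.0998 in epiblast (SD, n = 6 each). Slc13a4, a sulphate transporter, had 1.88 and 0.657.

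The loss of oocyte methylation was then compared with the mean of both wild-type crosses in ExE, a contrast that did not choose the members. The mixed strain of the matDKO/CAST mothers cannot be told apart from that loss. No member passed the adjusted threshold of 0.05 by limma for any mark. For H3K36me3, 0 of 10 passed, where 0.00516% of all genes did, and 4 had an unadjusted p under 0.05, as did 9.76% of all genes. These were Afp at -0.40 ± 0.11 (log2 difference ± SE), Cubn at -0.42 ± 0.13, Ttr at -0.37 ± 0.13 and Dab2 at -0.18 ± 0.07, all lower in matDKO/CAST, and their adjusted p by limma was 0.312, 0.375, 0.435 and 0.464. edgeR on reads recovered from the levels called none of the 10 either. Cubn had 2.13 and 1.81 RPKM in the matDKO/CAST pools, which lay below 3.21 and 3.55 of B6/CAST but around 2.02 and 2.58 of CAST/B6.

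For H3K4me3, 0 of 9 members passed, where 0.283% of all genes did. Hnf4a at its annotated 5′ end, at 0.85 ± 0.23 with an adjusted p of 0.0547 by limma, and Apoa4, at 0.65 ± 0.23 with 0.481, had an unadjusted p under 0.05, as did 3.76% of all genes, and edgeR called none. With a pseudocount of 1 Hnf4a passed, and without CAST/B6 replicate 2 its difference was 1.01. Its matDKO/CAST pools overlapped those of B6/CAST and lay above those of CAST/B6, with values given below. Of the wild-type crosses only B6/CAST shares the direction of the matDKO/CAST cross, and the part of direction in this difference was not tested. For H3K27me3, 0 of 10 passed, where 0.285% of all genes did. Amn at -0.66 ± 0.22 and Foxa2 at -0.63 ± 0.22, both lower in matDKO/CAST, and Afp at 0.50 ± 0.18 and Ttr at 0.43 ± 0.17, both higher, had an unadjusted p under 0.05, with an adjusted p by limma of 0.218, 0.246, 0.251 and 0.317. Of all genes 10.8% had such an unadjusted p, and edgeR called no member.

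Reciprocal wild-type crosses were compared in the same way. For H3K36me3, limma called none of the 10, where it called 0.0155% of all genes, and edgeR called 4, where it called 29.9% of all genes, 2557 higher and 3241 lower in CAST/B6. The 4 were Lrp2, Cubn, Apob and Dab2, all lower in CAST/B6, by -0.41 ± 0.10, -0.48 ± 0.15, -0.50 ± 0.17 and -0.27 ± 0.08 on the log2 scale of the limma fit, and they were also the 4 with an unadjusted p under 0.05 by limma, with an adjusted p of 0.0543, 0.0809, 0.102 and 0.0798. Since 30.9% of all genes had such an unadjusted p, the members' share was near the background under both tools. Lrp2 had 2.35 and 2.59 RPKM in B6/CAST and 1.67 and 1.80 in CAST/B6. After quantile normalization no member had an unadjusted p under 0.05. In the same libraries the median of all genes was 0.460 and 0.471 in B6/CAST and 0.621 and 0.584 in CAST/B6, and its part in the difference was not tested.

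For H3K4me3, Hnf4a alone of 9 members passed, where 4.51% of all genes did, and of these 718 genes 713 were lower in CAST/B6, whereas edgeR called 3005 higher and 2670 lower. The 99th percentile of window levels was 9.13 RPKM in CAST/B6 replicate 1, against 13.3 to 22.0 in the other ExE libraries. The part of this library in the calls was not tested. At its annotated 5′ end Hnf4a had 5.15 and 4.53 RPKM in B6/CAST, 1.38 and 2.44 in CAST/B6, and 6.88 and 5.02 in matDKO/CAST, the difference between reciprocal crosses being -1.18 ± 0.26 with an adjusted p of 0.00212 by limma. At its internal start the crosses overlapped, with 14.3 and 12.1 RPKM in B6/CAST and 9.92 and 15.3 in CAST/B6. The call was lost without B6/CAST replicate 1, at an adjusted p of 0.189, without CAST/B6 replicate 1, at 0.365, and after quantile normalization, at 0.332, with differences of -1.10, -0.86 and -0.64. Calls over all genes fell from 718 to 3 and 8 without those libraries and to 264 after quantile normalization, so that a call lost without 1 library says little of Hnf4a itself. The call was also lost without the filter on low levels, at an adjusted p by limma of 0.473, where 0 of all genes passed. With the replicate number as a block it was lost at 0.368, where 2 of all genes passed. In both settings the difference stayed at -1.18. Over all alternatives the adjusted p ran from 9.16e-04 to 0.473. For H3K27me3, 0 of 10 passed, where 0.0271% of all genes did, and Foxa2 and Amn had an unadjusted p under 0.05, as did 3.88% of all genes, both higher in CAST/B6, by 0.62 ± 0.26 and 0.55 ± 0.26, while edgeR called none. With the replicate number as a block Foxa2 passed, at an adjusted p by limma of 0.0368, where 229 of 14748 genes did.

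Allelic reads asked whether the marks on the members came from both parental genomes. Only peaks that the tables name for a member and that overlap it were used, which for H3K36me3 in ExE were 5 peaks, of Apob, Lrp2, Dab2, Afp and Foxa2, since the peaks over Cubn, Amn, Ttr and Hnf4a carried the names of neighbours. In these the maternal share of H3K36me3 reads in ExE was 49.9% and 49.98% in B6/CAST, 48.9% and 50.8% in CAST/B6, and 50.7% and 50.5% in matDKO/CAST, from 824 to 2916 reads. Lrp2 weighed most, with 853 maternal and 906 paternal of the 2916 reads of B6/CAST replicate 1. In each the share over all autosomal peaks, 48.8% to 54.0%, lay inside the 95% Wilson interval of the members, which covers counting error only, as reads without molecular identifiers are not independent molecules. In H3K4me3 of ExE the shares ran from 49.0% to 53.8%, and the share of all peaks again lay inside each interval. In epiblast, H3K4me3 of the matDKO/CAST pools had 49.0% and 47.8% at the members against 51.8% and 52.7% over all peaks, outside the intervals, as was H3K27me3 of CAST/B6 replicate 2 at 44.0% against 49.6%.

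**Figure D5:**
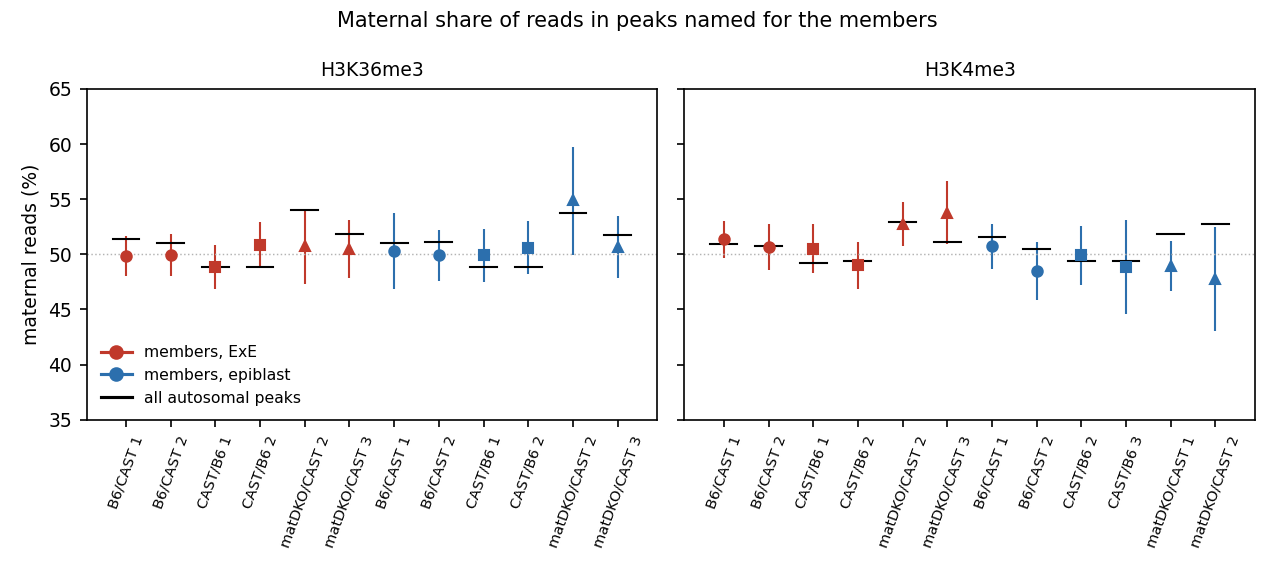
Share of maternal reads in percent (y axis) in peaks named for the members for each library (x axis), for H3K36me3 and H3K4me3, with 95% Wilson intervals as vertical lines and the share over all autosomal peaks as black bars. All ExE intervals hold the black bar of their library, and for H3K4me3 in epiblast the 2 matDKO/CAST intervals do not.

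No informative peak named for a member was parental, that is higher on the same parental allele in both wild-type crosses by edgeR, none was by DESeq2, and 0 of 39 had an unadjusted p under 0.05 by edgeR in both crosses in that way. In ExE there were 4 such peaks for H3K36me3, 12 for H3K4me3 and 3 for H3K27me3, where 0.251%, 0.319% and 1.35% of all informative peaks were parental, and in epiblast 7, 10 and 3, where 0.0632%, 0.108% and 0.325% were. These shares are of adjusted calls, and the share of all peaks at the unadjusted threshold was not taken. Peaks over members that carried a neighbour's name, such as the H3K36me3 peaks over Cubn in ExE, named for Rsu1, and over Amn, named for Traf3, were again not counted.

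Strain-specific peaks, higher on the same strain's allele in both wild-type crosses, made up 1.1%, 3.96% and 4.32% of informative H3K36me3, H3K4me3 and H3K27me3 peaks in ExE and 0.424%, 0.841% and 1.01% in epiblast. These shares are of adjusted calls, and none was taken at an unadjusted threshold, so nothing is read from the next count. Of the 39 member peaks, 4 had an unadjusted p under 0.05 by edgeR in both crosses in this strain-specific way. They were an H3K27me3 peak beyond Lrp2, the H3K4me3 peaks over the starts of Cubn and Dab2 in ExE, and the H3K36me3 peak over Dab2 in epiblast. Only 1 was called after adjustment, the H3K27me3 peak of epiblast at chr2:69405000-69424000, 340 bases beyond the 3′ end of Lrp2. In B6/CAST the maternal allele had 140 and 145 reads and the paternal allele 43 and 43, and in CAST/B6 these were 80 and 43 against 255 and 157, so that the B6 allele held more reads in every pool. The log2 ratios of maternal over paternal were 1.64 and -1.74, with adjusted p by edgeR of 9.46e-04 and 1.03e-24. In matDKO/CAST there were 202 and 54 maternal against 71 and 19 paternal reads. The ratio was 1.24 with an adjusted p by edgeR of 7.09e-05, where 1.97% of peaks passed in that cross. DESeq2 gave a ratio of 1.23 with an adjusted p of 0.205, and called 12 peaks in that cross where edgeR called 176. The peak over the start of Lrp2 passed in no cross, with B6/CAST at -0.57, CAST/B6 at 0.03 and matDKO/CAST at 0.91, and adjusted p by edgeR of 0.804, 0.969 and 0.707 respectively. It held few reads, 9 and 9 maternal against 13 and 12 paternal in B6/CAST and 13 and 3 against 6 and 1 in matDKO/CAST.

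At the internal start of Dab2, H3K4me3 of epiblast (chr15:6384000-6392000) had more CAST reads in all 6 pools. The counts were 187 and 110 maternal against 240 and 150 paternal in B6/CAST, 202 and 61 against 132 and 40 in CAST/B6, and 146 and 34 against 190 and 56 in matDKO/CAST. The log2 ratios were -0.45, 0.65 and -0.58, with adjusted p by edgeR of 0.489, 0.171 and 0.0253, the last where 7.17% of peaks passed. That call in matDKO/CAST was lost by DESeq2, at a ratio of -0.63 with an adjusted p of 0.799, and without the filter on low counts, at -0.59 and 0.0859. DESeq2 called 215 peaks in that cross and edgeR 1457, or 1622 without the filter. With each library as a block, which pairs the alleles of the same pool, the wild-type crosses gave 0.00629 and 0.0240 and the peak counted as strain-specific, where 2.93% of peaks did. In ExE the peak over the same start had ratios of -0.22 and 0.22 in the wild-type crosses, in the same direction, with adjusted p by edgeR of 0.136 and 0.201.

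H3K36me3 over the body of Dab2 in epiblast (chr15:6387500-6440500) also had more CAST reads in the 4 wild-type pools. B6/CAST had 41 and 116 maternal against 68 and 137 paternal reads, and CAST/B6 156 and 137 against 128 and 115. The log2 ratios were -0.47 and 0.34, with adjusted p by edgeR of 0.285 and 0.149, so that neither passed. In matDKO/CAST, with 27 and 74 against 21 and 79, the ratio was -0.09 with an adjusted p of 0.975.

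At the start of Cubn, H3K4me3 of ExE (chr2:13482000-13499000) leaned to B6. In B6/CAST it had 431 and 266 maternal and 334 and 213 paternal reads. In CAST/B6 the maternal allele had 174 and 192 and the paternal allele 196 and 277. Only B6/CAST passed, at 0.30 with an adjusted p by edgeR of 0.0414, where 13.6% of peaks passed in that cross, and CAST/B6 gave -0.33 and 0.221. DESeq2 gave an adjusted p of 0.455 for that cross. Without B6/CAST replicate 1 or 2 the ratio was 0.28 and 0.32, with an adjusted p by edgeR of 0.963 and 0.885. In those fits the lone B6/CAST library was assumed to vary like the other crosses, and calls over all peaks in that cross fell from 3159 to 215 and 541, so that the lost call says little of Cubn itself. With each library as a block matDKO/CAST passed too, at 0.36 with an adjusted p by edgeR of 0.0125, where 12.3% of peaks passed. In epiblast the Cubn start had the same direction in both wild-type crosses, at 0.40 and -0.53, without passing, with adjusted p by edgeR of 0.859 and 0.804.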

How the data were processed

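H3K4me3, H3K27me3 and H3K36me3 were profiled by ultra-low-input native ChIP-seq with MNase. Per the submitters' processing notes, reads were trimmed with Trim Galore 0.4.4 and aligned with Bowtie2 2.3.2 to GRCm38. The authors masked strain variants, sorted reads by allele, called peaks with chromstaR in each wild-type cross and tissue, and merged the crosses' peaks for the allele tables. The deposited files hold RPKM in 1 kb windows for each library, raw read counts per peak and allele, and peak lists whose deposited score is 0 throughout, so that positions alone were used. Window values were whole multiples of 1 read in 100.0% of cases (within 0.1 read), and reads were recovered from them.

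From these, mean RPKM per gene were compared on log2(RPKM + 0.5) with limma 3.58.1 (trend, all 12 libraries of a mark, 2 per group, genes of mean 0.2 RPKM or more, two-sided, Benjamini-Hochberg over all genes, threshold 0.05), and allele counts with edgeR 4.0.16 quasi-likelihood tests in peaks with at least 20 reads in a wild-type allele column. DESeq2 1.42.0 and edgeR on recovered reads were alternatives. The fits were tested on simulated data. Maternal and paternal columns of 1 library pair by construction; libraries of unlike crosses share only a number.

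Members, marker lists and tests were chosen with earlier results of these data known. Named were all members, up to 4 genes of each list with the highest mean H3K36me3, and the 10 genes most like the members' mean, except an item that is not reported here. Of 16 other visceral endoderm genes, 14 were autosomal and measured.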

Additional observations from a re-analysis of the deposited data

Results flagged for a closer look

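Among the values of each member over 6 libraries of a tissue and mark, 60 groups were examined for a library that stood far from the other 5, and 2 were found, where chance alone gives about 1 in 20. H3K4me3 at the internal start of Dab2 in ExE was 16.2 RPKM in CAST/B6 replicate 2, while the other libraries lay between 10.5 and 12.5. H3K27me3 at the start of Afp in epiblast was 0.635 RPKM in matDKO/CAST replicate 2, while the others lay between 0.173 and 0.330. Both were the highest of their group.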

How the results depend on the processing

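With 2 pools per group, moderate differences between crosses could escape the tests, and windows of 1 kb cannot resolve the short genes Amn, Apoa4 and Foxa2. Of 590 recomputed differences between the tissues for single members, 557 moved by less than the spread between libraries, 33 by more, and no called one changed sign. The members' median H3K36me3 difference was 0.95 with a pseudocount of 0.1 and 0.42 after quantile normalization, and that of H3K4me3 1.31 under percentile scaling. Members with higher H3K36me3 numbered 5 after quantile normalization. Members with higher H3K4me3 numbered 6 and with lower 0 under quantile and percentile scaling. For H3K27me3, 2 were higher and 2 lower in wild-type crosses alone, where fewer libraries separate more easily and the share of all genes was not computed. Leaving out 1 library at a time, members higher and lower were 7 to 8 and 0 (H3K36me3), 3 to 5 and 1 (H3K4me3), and 1 and 1 to 2 (H3K27me3), with medians of 0.62 to 0.71, 0.78 to 1.00 and -0.00 to 0.11. Leaving out a library can only keep or raise these counts of members, so the counts do not measure stability.

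Counts over all genes depended on the setting. For matDKO/CAST, 1 gene passed for H3K36me3, 3 with a pseudocount of 0.1, 6 without a filter, 0 after quantile normalization, 21 by edgeR and 0 from ExE alone. For H3K4me3, 45 passed, 2 without a filter, 89 after quantile normalization and 229 by edgeR, with 1 member, Hnf4a, at a pseudocount of 1. For H3K27me3, 42 passed, 0 without a filter, 77 after quantile normalization, 169 by edgeR and 179 from ExE alone. Between reciprocal crosses, 3 passed for H3K36me3, 1 at a pseudocount of 0.1, 1501 at 1, 891 without a filter, 0 after quantile normalization, 5798 by edgeR and 0 from ExE alone, with 1 member at a pseudocount of 1 and 1 without a filter, Lrp2 in both, and 4 by edgeR. For H3K4me3, 718 passed, 0 without a filter, 264 after quantile normalization and 5675 by edgeR. Of the members, 1 passed in the main fit and by edgeR, Hnf4a in both, and 0 without a filter and after quantile normalization. For H3K27me3, 4 passed, 1 at a pseudocount of 0.1, 0 without a filter, 13 by edgeR and 9 from ExE alone. The causes were not tested. Leaving out 1 library at a time gave 0 to 1, 14 to 53 and 4 to 86 genes for matDKO/CAST and 0 to 2, 3 to 933 and 0 to 2 between reciprocal crosses for H3K36me3, H3K4me3 and H3K27me3, with 0 to 1 members called for H3K4me3 in each comparison and 0 for the other marks.

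Same-numbered wild-type ExE libraries did not deviate together, with correlations of -0.09, -0.31 and 0.07. With the replicate number as a block, 0, 2 and 229 genes passed for H3K36me3, H3K4me3 and H3K27me3, with 0 members for H3K4me3 and 1 for H3K27me3, Foxa2, at an adjusted p of 0.0368. With each library as a block of its 2 alleles, 1 member peak was strain-specific for H3K4me3 in epiblast. Parental and strain-specific peaks together changed by 0.593 to 3.28 times under that block and were 2.53 to 10.8 times more numerous than by DESeq2.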
